A study of Rattus norvegicus with 47 samples.

Results

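The 5 genes described here, Dlk1, Ddc, Tesc, Arsi and Moap1, were picked as genes with less RNA in lungs of rats that had inhaled crystalline silica than in lungs of rats that had breathed air. The size of the difference varied among them, from 5.61-fold lower for Dlk1 at 6 months to 1.16-fold lower for Ddc at 1 day, and Moap1 shared its reads with another gene model. They are 5 of the 30045 gene models listed in each of 4 count tables, and all 5 were found by name in every table. The silica-against-air difference in lung chose them, so that difference is described below without a test, and tests are given only for blood and for genes outside the group of 5.

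The animals were healthy male Fischer 344 rats, an inbred strain, weighing 250 to 300 g. Silica rats breathed an aerosol of Min-U-Sil 5, a ground crystalline silica, by whole-body inhalation (15 mg/m3, 6 hours daily, 5 days), and control rats breathed filtered air. Lung tissue and whole blood were taken 1 day or 6 months after the end of exposure, which gave 8 groups of 6 libraries each except air lung at 6 months with 5, in all 47 libraries of which 23 were lung. Globin RNA had been removed from the blood samples, and the library kit was a stranded mRNA kit. The labels give no age, exposure chamber or batch, so treatment and chamber cannot be told apart. Totals of estimated counts ran from 9643527 to 25875985 per library, and the deepest was that of air rat 42 in lung at 1 day. Levels are given as CPM (counts scaled to the same library size, with TMM factors). Alveolar type 2 markers summed to 21100 to 36700 CPM over the lung libraries and to 199 to 277 CPM over the blood libraries. CPM were scaled within each table, so a level at 1 day and a level at 6 months do not share a scale exactly. In whole tissue, fewer cells of a type and less RNA per cell cannot be told apart.

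Dlk1 encodes a membrane protein with EGF-like repeats that acts as a non-canonical ligand of Notch receptors and is known, as Pref-1, for holding fat cell precursors undifferentiated. It is an imprinted gene expressed from the paternal chromosome, while the nearby long non-coding RNA Meg3 is expressed from the maternal one. Ddc encodes the aromatic amino acid decarboxylase that makes dopamine and serotonin, and in lung it is known from neuroendocrine cells. Tesc encodes tescalcin, a calcium-binding homolog of calcineurin B that binds a sodium-proton exchanger. Arsi encodes a member of the sulfatase family, and Moap1 encodes a BAX-binding protein of the PNMA family that takes part in cell death.

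The sequence before the start of a gene is shown for 3 of the 5 and for Meg3, because Dlk1 and Meg3 lie in the same imprinted region of chromosome 6 and varied together in these lungs. The windows are from RefSeq on build GRCr8, run 5′ to 3′ on the gene's strand, and are printed only where no gene record covers them. Capitals mark motif matches. The Dlk1 stretch is chr6:134192347-134192490 on the plus strand, that of Meg3 chr6:134273806-134274055 on the plus strand, that of Ddc chr14:90682831-90683033 on the minus strand and that of Tesc chr12:44216575-44216790 on the minus strand.
Dlk1: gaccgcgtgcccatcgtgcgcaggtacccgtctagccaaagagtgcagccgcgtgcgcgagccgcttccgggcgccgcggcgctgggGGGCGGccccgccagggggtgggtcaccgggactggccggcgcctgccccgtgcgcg
Meg3: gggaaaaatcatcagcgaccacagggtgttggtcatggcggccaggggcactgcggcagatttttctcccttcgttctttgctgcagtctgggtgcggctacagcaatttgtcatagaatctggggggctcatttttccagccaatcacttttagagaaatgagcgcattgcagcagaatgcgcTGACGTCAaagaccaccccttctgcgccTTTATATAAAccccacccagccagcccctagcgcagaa
Ddc: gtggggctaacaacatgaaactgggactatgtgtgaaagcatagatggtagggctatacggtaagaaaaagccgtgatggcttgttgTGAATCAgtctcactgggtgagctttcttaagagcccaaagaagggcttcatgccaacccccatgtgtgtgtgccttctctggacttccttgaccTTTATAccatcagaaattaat
Tesc: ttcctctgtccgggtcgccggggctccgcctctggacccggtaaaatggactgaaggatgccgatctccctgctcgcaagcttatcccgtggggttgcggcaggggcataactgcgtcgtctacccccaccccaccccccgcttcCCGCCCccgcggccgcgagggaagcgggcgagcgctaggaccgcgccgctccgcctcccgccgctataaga
The stretches differ most in base composition, with 79.2% G and C before Dlk1, 69.9% before Tesc, 53.2% before Meg3 and 45.8% before Ddc. The letters searched on both strands were TATAAA for the TATA box, GGGCGG for the SP1 motif, CACGTG for the E-box, TGACGTCA for the CRE motif, TGANTCA for the AP-1 motif, GGGANTTTC for the NF-kB motif and TGGGAA for RBPJ, the DNA-binding factor of the Notch pathway. The capitals before Dlk1 are 1 of 2 SP1 matches, and the other lies nearer the start under a gene record. Before Meg3 they are a CRE match and a pair of overlapping TATA matches, 1 on each strand. Before Ddc they are an AP-1 match and a TATA match on the opposite strand, and before Tesc an SP1 match on the opposite strand. Ddc had 3 windows, of which only the first is printed. Of 33469 windows of 300 bases, 33.1% held the SP1 letters, 14.2% the TATA letters, 7.33% the AP-1 letters, 1.83% the CRE letters, 6.42% the E-box letters, 1.15% the NF-kB letters and 25.7% the RBPJ letters. The Moap1 window, which lies inside another gene record and is not printed, held 1 CRE and 1 SP1 match. Arsi had no entry in the promoter table.

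Dlk1, the Notch ligand, showed the deepest difference of the 5 at both times. At 1 day it ran from 2.72 to 3.69 CPM in silica lungs with a median of 3.16, against 7.43 to 26.6 CPM in air lungs with a median of 13.9. The 6 silica lungs lay in a narrow band below every air lung, while the air lungs spread over a 3.58-fold range with rat 42 highest. The mean was 3.15 ± 0.367 CPM in silica and 15.1 ± 7.31 CPM in air lungs (SD, n = 6 each), a log2 fold change of -2.26 ± 0.28 (SE), the fourth lowest of 15331 genes tested (rank 4). Of those genes 5.72% passed edgeR's test with lower values in silica lung and 8.39% with higher values. Dlk1 and Arsi were 2 of the 5 genes, and 2.8% of all genes tested, with every silica lung below every air lung at 1 day. Since this contrast chose the genes, nothing is read from that count.

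At 6 months Dlk1 ran from 2.76 to 11.7 CPM in silica lungs with a median of 3.81, against 24.8, 15.7, 26.4, 46.1 and 31.1 CPM in air rats 49, 51, 52, 53 and 54. Silica rat 59 stood apart at 11.7 CPM, with the next silica lung at 5.52 CPM, yet the groups did not overlap. The mean was 5.09 ± 3.39 CPM in silica (n = 6) and 28.8 ± 11.2 CPM in air lungs (n = 5), a log2 fold change of -2.49 ± 0.36 or 5.61-fold lower, rank 5 from the lowest of 15309 genes. Without silica rat 59 the log2 value was -2.95. Of the genes tested at 6 months 6.38% passed lower and 9.84% higher, and 3.03% had every silica lung below every air lung. Dlk1, Ddc and Tesc, 3 of the 5 genes, were among the last, and nothing is read from that count either.

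The log2 effect on Dlk1 differed between the times by -0.22 ± 0.50 (6 months minus 1 day), less than its standard error. Without air rat 53 of the 6-month group this difference was 0.009. Over all 15786 genes in that fit 1.12% passed toward higher and 0.253% toward lower effects at 6 months.

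**Figure D1:**
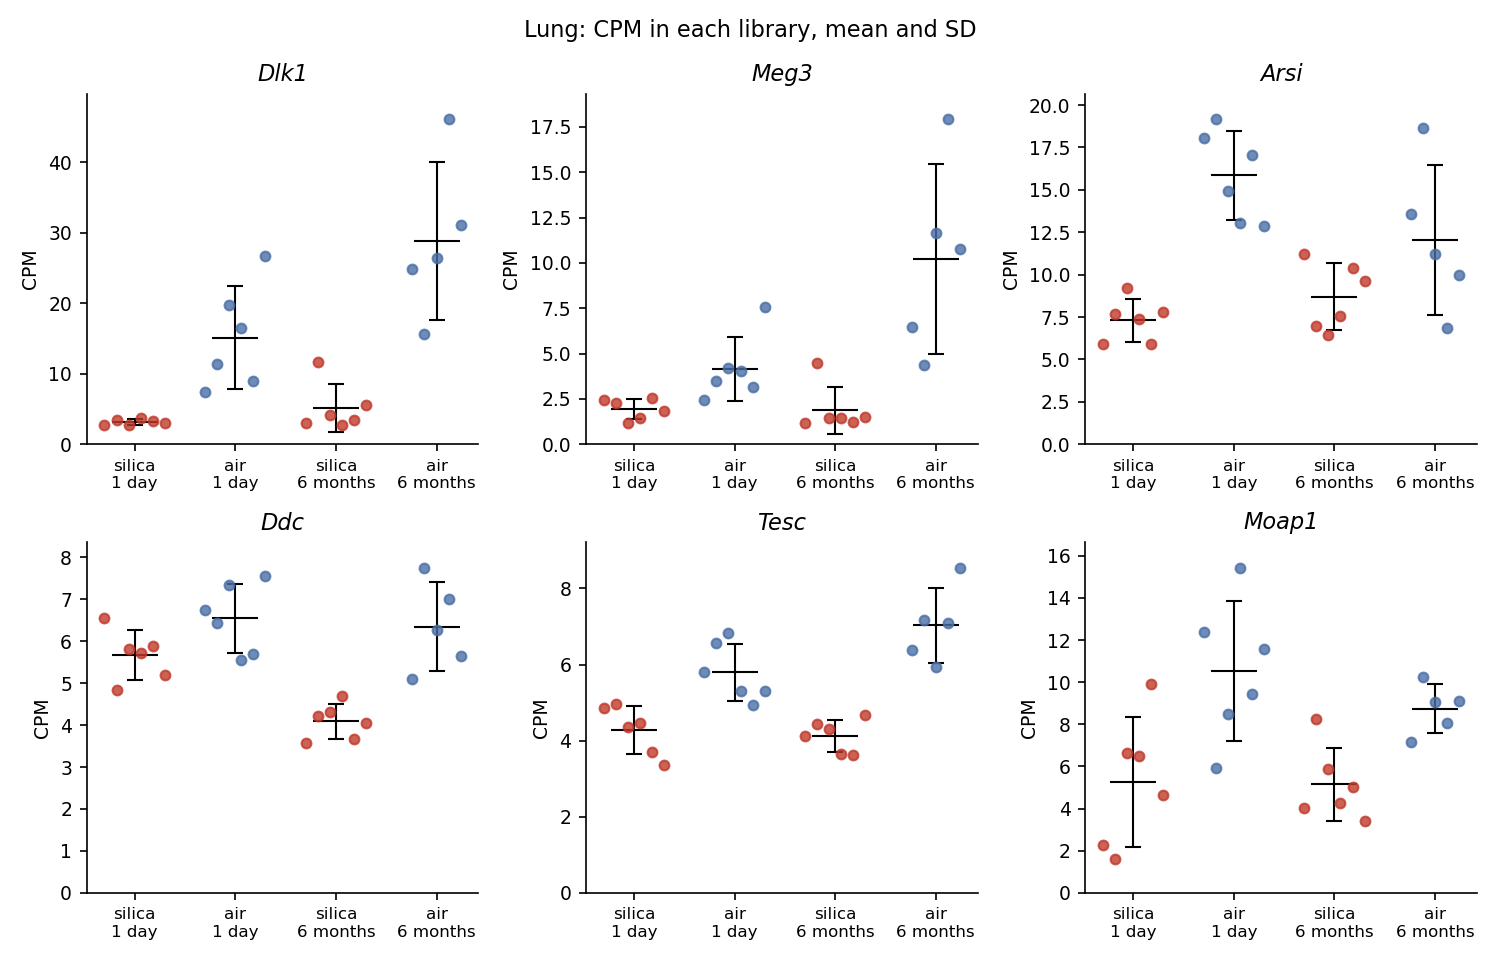
CPM (vertical axes, each starting at 0) of Dlk1, the nearby Meg3, Arsi, Ddc, Tesc and Moap1 in every lung library, with points for single rats, bars for the mean and SD, silica in red and air in blue. Dlk1 of silica lungs stayed at or below 11.7 CPM at 6 months while air lungs started at 15.7 CPM.

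Arsi, the sulfatase gene, differed most at 1 day. It ran from 5.89 to 9.23 CPM in silica lungs with a median of 7.52, against 12.9 to 19.2 CPM in air lungs with a median of 16.0. All 6 silica lungs lay below all 6 air lungs. Arsi had a log2 fold change of -1.11 ± 0.13, rank 28 from the lowest.

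At 6 months Arsi ran from 6.46 to 11.2 CPM in silica lungs with a median of 8.61, against 13.6, 18.6, 11.2, 6.87 and 9.99 CPM in air rats 49, 51, 52, 53 and 54. The groups overlapped, since air rat 53 lay among the lowest silica lungs and air rat 51 far above the rest. Its log2 fold change was -0.48 ± 0.225, rank 364, and it was -0.27 without air rat 51 and -0.63 without air rat 53. The effect at 6 months exceeded that at 1 day by 0.64 ± 0.27 on the log2 scale, which means a value nearer to 0 at the later time.

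Ddc, the decarboxylase gene, and Tesc, the calcineurin B homolog, had the opposite order of sizes, with the larger difference at 6 months. Ddc at 1 day ran from 4.83 to 6.55 CPM in silica lungs with a median of 5.78, against 5.54 to 7.55 CPM in air lungs with a median of 6.586. Those groups overlapped and only 2 of 6 silica lungs lay below the lowest air lung. At 6 months Ddc ran from 3.57 to 4.71 CPM in silica lungs with a median of 4.13, against 5.09, 7.75, 6.27, 7.02 and 5.64 CPM in the 5 air lungs. These groups did not overlap. On the log2 scale Ddc differed by -0.21 ± 0.10 at 1 day (rank 1435) and -0.64 ± 0.12 at 6 months (rank 168), a difference of -0.43 ± 0.16 between times.

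Tesc at 1 day ran from 3.37 to 4.96 CPM in silica lungs with a median of 4.41, against 4.95 to 6.84 CPM in air lungs with a median of 5.56. The highest silica lung and the lowest air lung were nearly equal, and 5 of 6 silica lungs lay below all air lungs. At 6 months Tesc ran from 3.63 to 4.66 CPM in silica lungs with a median of 4.21, against 6.38, 7.18, 5.94, 7.09 and 8.54 CPM in the 5 air lungs. The groups were apart at 6 months. On the log2 scale Tesc differed by -0.43 ± 0.12 at 1 day (rank 342) and -0.78 ± 0.11 at 6 months (rank 104), a difference of -0.34 ± 0.16 between times.

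Moap1, the BAX-binding gene, had the largest spread of the 5 within groups at 1 day, with an SD of 0.779 log2 CPM, and at 6 months an SD of 0.357, below the 0.684 of Dlk1 and the 0.429 of Arsi. At 1 day it ran from 1.59 to 9.90 CPM in silica lungs with a median of 5.58, against 5.91 to 15.4 CPM in air lungs with a median of 10.5. The groups overlapped, with 3 of 6 silica lungs below the lowest air lung, and the log2 fold change was -1.002 ± 0.35 (rank 35). At 6 months it ran from 3.42 to 8.24 CPM in silica lungs with a median of 4.65, against 7.17, 10.2, 9.07, 8.06 and 9.10 CPM in the 5 air lungs. Silica rat 59 was again the highest of its group and the only one inside the air range, and the log2 fold change was -0.76 ± 0.195 (rank 109). The time difference was 0.25 ± 0.45.

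**Figure D2:**
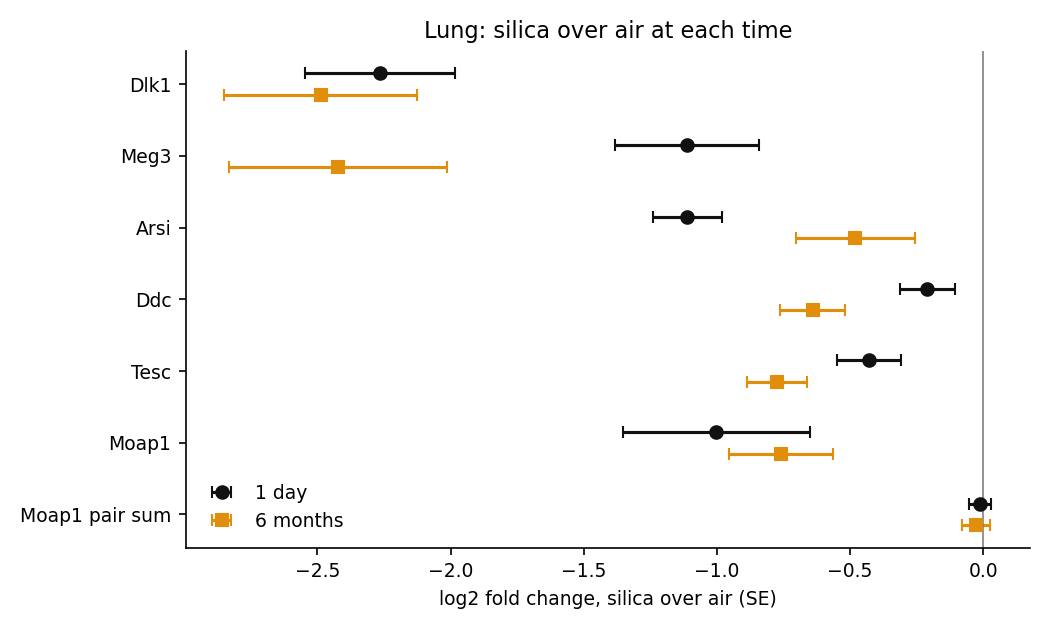
Log2 fold change of silica over air lung (horizontal axis, bars are SE) at 1 day (circles) and 6 months (squares) for the 5 genes, Meg3 and the sum of Moap1 with the gene model that shares its reads. Dlk1 lay near -2.26 and -2.49, Arsi was nearer to 0 at 6 months, Ddc and Tesc were farther from 0 at 6 months, and the Moap1 sum lay at 0 within its SE.

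The Moap1 counts could not be read on their own. The deposited counts of the other 4 genes were whole within 0.003 in every library, while those of Moap1 were not whole in 12 of 12 lung libraries at 1 day and in 10 of 11 at 6 months. In each of these libraries the count of the gene model LOC100233176 completed that of Moap1 to a whole number within 0.003, and so it did in 6 of 6 such blood libraries at each time. The next best gene model did so in at most 2 libraries of a table. The GRCr8 reference table names this model Gon7, gives both genes the same lower coordinate on chromosome 6, and places Moap1 within Gon7.

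The sum of Moap1 and LOC100233176 was nearly level between treatments. At 1 day it ran from 43.4 to 44.5 CPM in silica lungs with a median of 43.7, against 39.0 to 46.6 CPM in air lungs with a median of 44.7, a log2 fold change of -0.011 ± 0.041. At 6 months it ran from 37.6 to 44.4 CPM in silica lungs, against 38.1 to 43.5 CPM in air lungs, a log2 fold change of -0.028 ± 0.052. What differed was the share of the sum assigned to Moap1, which at 1 day was 3.58% to 22.9% in silica lungs with a median of 12.8%, against 13.5% to 39.6% in air lungs with a median of 23.6%. At 6 months the share was 8.16% to 21.8% in silica lungs with a median of 11.3%, against 18.5% to 24.9% in air lungs with a median of 20.7%. LOC100233176 alone was 0.20 ± 0.097 log2 higher in silica lung at 1 day (adjusted p = 0.20 by edgeR's quasi-likelihood test) and 0.12 ± 0.072 at 6 months (adjusted p = 0.283). Summing the pair was chosen after the data were seen.

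**Figure D3:**
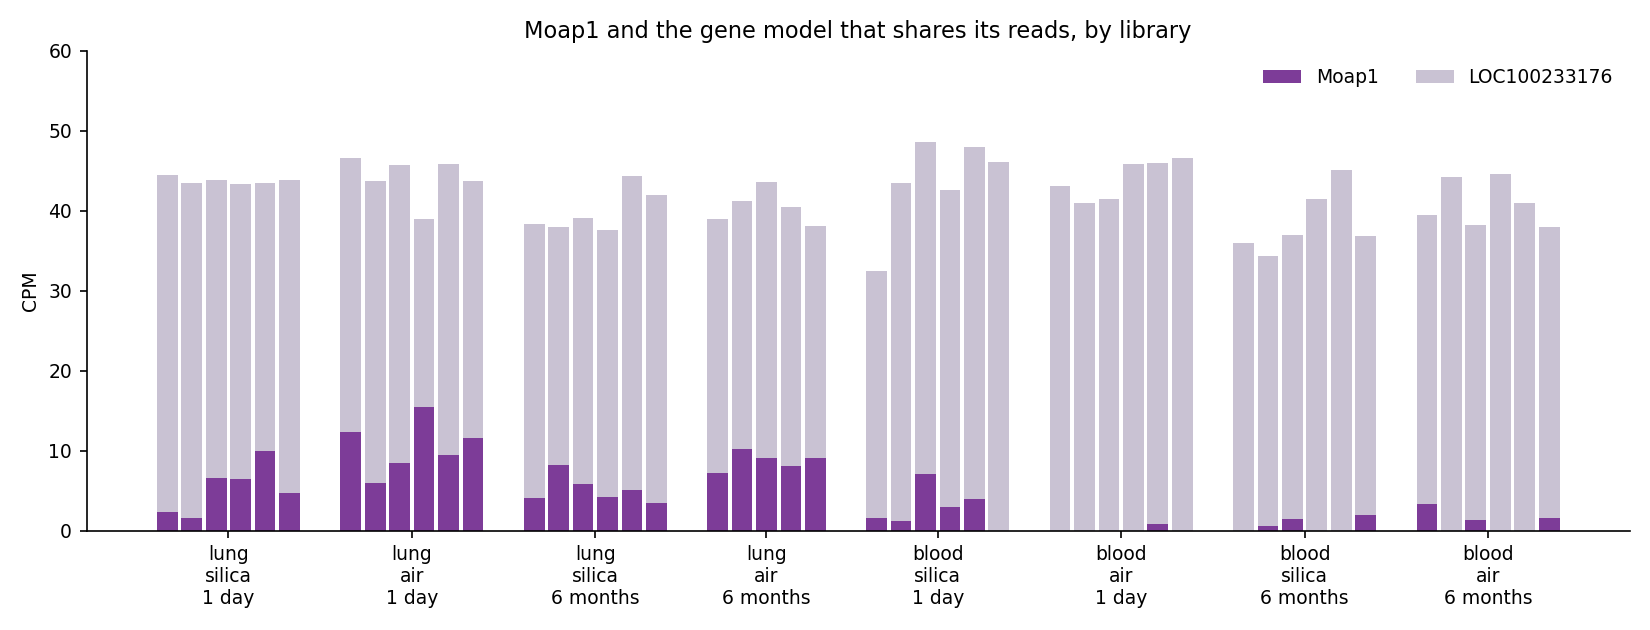
CPM (vertical axis) of Moap1 (dark) with LOC100233176 (light) stacked on it, 1 bar for each of 47 libraries, grouped by tissue, treatment and time. The full bars of silica lungs lay at 37.6 to 44.5 CPM and those of air lungs at 38.1 to 46.6 CPM, while the dark part varied from bar to bar and was at 0 in several blood libraries.

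In blood 3 of the 5 genes could be tested at 1 day and 1 at 6 months. Only Moap1 passed the test, at 1 day and not when summed with LOC100233176. It passed the filter on low counts mainly through the silica libraries, so nothing is read from that call. Dlk1 had 0 counts in all 6 silica libraries and 0 to 2 in air libraries at 1 day, and 0 to 1 in silica and 0 to 2 in air libraries at 6 months. Ddc had 0 to 3 counts per silica library and 1 to 3 per air library at 1 day, and 0 to 2 in each group at 6 months. Both genes were therefore at or below a floor of 3 counts per library, and no difference was detectable at this depth.

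Tesc was measured well in blood. At 1 day it ran from 8.16 to 11.2 CPM in silica blood with a median of 10.1, against 9.30 to 11.4 CPM in air blood with a median of 10.3. At 6 months it ran from 7.29 to 10.3 CPM in silica blood with a median of 8.62, against 7.69 to 10.2 CPM in air blood with a median of 8.99. The groups overlapped widely at both times. The log2 fold change was -0.054 ± 0.086 at 1 day (edgeR adjusted p = 0.848) and -0.080 ± 0.099 at 6 months (edgeR adjusted p = 0.831), and neither passed the test. The difference between lung and blood was not tested. Arsi had 14 to 31 counts per silica library and 8 to 29 per air library at 1 day, with a log2 fold change of -0.022 ± 0.28 (edgeR adjusted p = 0.99). At 6 months it had 4 to 18 counts per silica library and 2 to 39 per air library and did not pass the filter on low counts.

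Moap1 in blood at 1 day was estimated at 25.8, 19.1, 101, 58.4, 73.4 and 0 counts in silica rats 43 to 48, against 0 in 5 of 6 air rats and 10.2 in air rat 41. Its log2 fold change was 4.50 ± 1.01 (edgeR adjusted p = 0.0442), a size that hangs on the prior count since 5 air libraries were at 0. Moap1 passed the filter on low counts mainly through the silica libraries, where it was higher, so nothing is read from this call. Leaving out any 1 of 9 of the 12 libraries (silica 45, 46 and 47 and each air rat) ended the call, with adjusted p up to 0.104. The sum with LOC100233176 ran from 32.5 to 48.6 CPM in silica and 41.0 to 46.6 CPM in air blood, a log2 fold change of -0.020 ± 0.083 (edgeR adjusted p = 0.955). At 6 months Moap1 was at 0 in 3 of 6 silica and 3 of 6 air libraries, and the sum differed by -0.089 ± 0.071 log2 (edgeR adjusted p = 0.718). Of 12253 genes tested in blood at 1 day 1.19% passed higher and 0.18% lower. Of 11629 tested at 6 months 0.0086% passed higher, which is 1 gene, and 0% lower, with 432 lower at an unadjusted p under 0.05 and 3 genes in all by DESeq2.

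The 5 genes did not vary as a block from lung to lung. For each gene the group mean was subtracted from log2 CPM, and Pearson's r was taken over the 23 lung libraries as a description, since libraries share depth and RNA composition. Of the 10 pairs, Dlk1 and Arsi had the r farthest from 0, at -0.62, with -0.56 within 1 day and -0.65 within 6 months. It was -0.33 over the 12 silica lungs and -0.82 over the 11 air lungs, and the difference between these values was not tested. The 3 air rats lowest in Dlk1 at 1 day, rats 37, 41 and 38 with 7.43, 8.94 and 11.4 CPM, held the 3 highest Arsi values of that group, 18.1, 17.1 and 19.2 CPM. At 6 months air rat 51 was lowest in Dlk1 and highest in Arsi, and air rat 53 was highest in Dlk1 and lowest in Arsi. Tesc and Moap1 had an r of -0.40, made of -0.61 at 1 day and 0.145 at 6 months. The other 8 pairs ran from -0.23 to 0.23. The r with the log2 total count was 0.33 for Dlk1 and between -0.14 and 0.22 for the other 4.

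**Figure D4:**
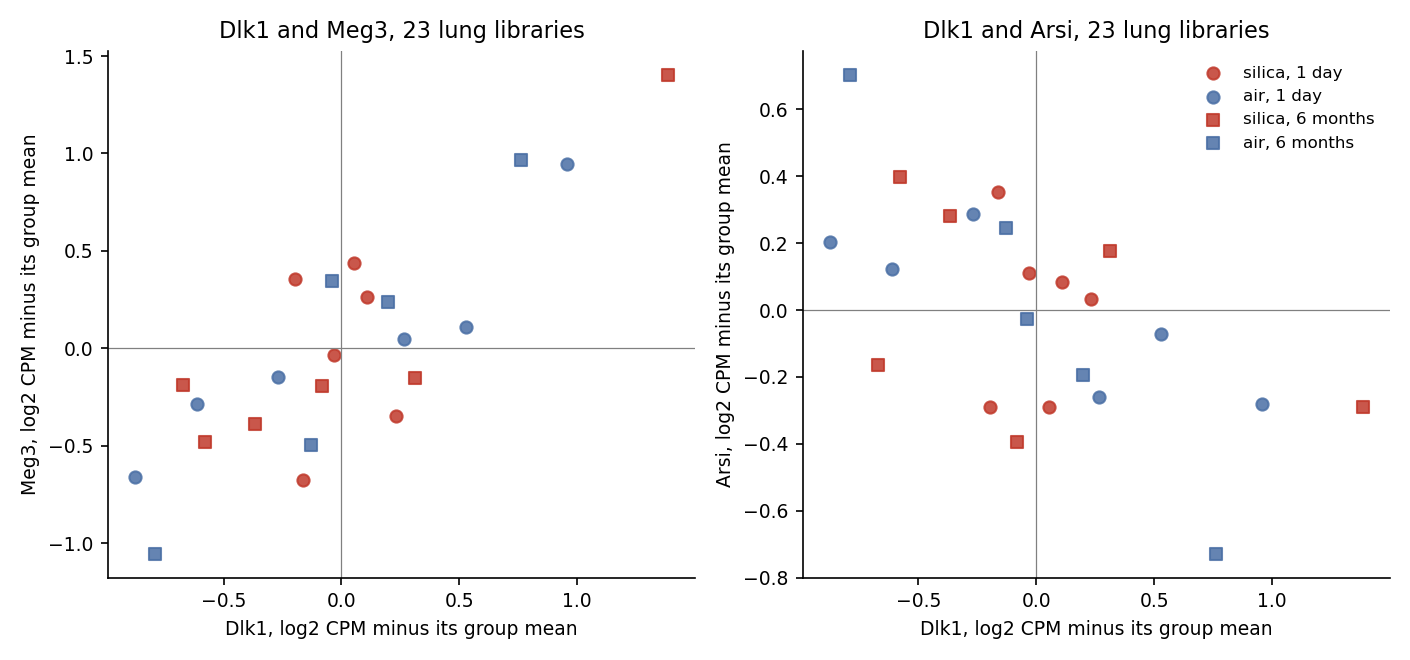
Log2 CPM of Dlk1 minus its group mean (horizontal axes) against the same measure of Meg3 (left) and Arsi (right), 1 point for each of 23 lung libraries, red for silica, blue for air, circles for 1 day and squares for 6 months. Meg3 and Dlk1 lay on the same side of their group means in 19 of 23 libraries, and Arsi and Dlk1 on opposite sides in 16 of 23.

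Of 14834 genes ranked by this r, models known only by a LOC number were passed over here. Among the rest, the gene most like Dlk1 was Meg3, from the same region, which the tables list as RGD1566401. The r was 0.84 over 23 libraries, 0.71 within 1 day and 0.91 within 6 months, and leaving out each library in turn gave 0.75 to 0.86. The next most like Dlk1 were Irak1bp1 (0.73), Ythdc1 (0.72), RGD1562101 (0.71) and Clec1b (0.71), whose log2 fold changes of silica over air at 6 months were -0.31, -0.10, -0.37 and -0.33. Arsi was most like Nmt1 (0.83), Shisa4 (0.78) and Mtfr1l (0.78), and Ddc like Tnfrsf10b (0.68), Pth1r (0.68) and Kcnj12 (0.67). Tesc was most like Fastkd5 (0.74), Dedd2 (0.71) and Gcdh (0.69), but Gcdh had 0.853 within 1 day and 0.316 within 6 months. All these names, those for Dlk1 included, were picked as the highest of 14834 genes over only 23 libraries. How high an r such picking gives by itself was not tested. Moap1 had an r of 0.73 with Zfp295 and 0.72 with Rnf123, both among the genes most like it. Within 1 day these were 0.767 and 0.822, and within 6 months 0.49 and 0.21. Moap1 counts depend on the split of reads with LOC100233176, with which its r was -0.665, so these values cannot be read on their own. Meg3 and Arsi had an r of -0.79 and lay on opposite sides of their group means in 20 of 23 libraries.

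Meg3, the maternally expressed non-coding RNA, fell with silica at both times. At 1 day it ran from 1.15 to 2.57 CPM in silica lungs with a median of 2.06, against 2.44 to 7.55 CPM in air lungs with a median of 3.77. Of the 6 silica lungs 5 lay below every air lung, and the remaining one, rat 47, lay just above air rat 37. The log2 fold change was -1.11 ± 0.27 (edgeR adjusted p = 0.0126). At 6 months it ran from 1.16 to 4.48 CPM in silica lungs with the middle lungs at 1.436 and 1.443, against 6.46, 4.36, 11.6, 17.9 and 10.8 CPM in the 5 air lungs. Silica rat 59, also the highest in Dlk1, was the only silica lung inside the air range, and air rat 53 was the highest in both genes. The log2 fold change was -2.42 ± 0.41 (edgeR adjusted p = 0.00187), rank 6 from the lowest next to Dlk1 at rank 5. The effect on Meg3 differed by -1.31 ± 0.52 on the log2 scale (6 months minus 1 day), which did not pass edgeR's test (adjusted p = 0.25). Meg3 had at most 1 count in any blood library.

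Little of the rest of the Dlk1 and Meg3 region could be read in lung. Of 202 genes that the reference places from Begain to Dio3, 62 were in the tables, 57 of them microRNA genes. The microRNA genes had no counts in any library, and the kit was one for mRNA, so their levels cannot be read. Genes absent from the tables have no level here either. The 4 genes with more than 3 counts in any lung library were Begain, Dlk1, Meg3 and Dio3. Begain, at one end, did not pass the test (log2 0.13 ± 0.15 at 1 day, edgeR adjusted p = 0.618, and -0.36 ± 0.21 at 6 months, edgeR adjusted p = 0.278). Dio3, the deiodinase gene at the other end, failed the filter on low counts, with 3 to 20 counts per silica lung and 1 to 5 per air lung at 6 months.

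Across 30 imprinted genes listed, 26 were found and 16 tested in lung, of which 0 rose and 3 fell at 1 day and 1 rose and 3 fell at 6 months. The median log2 fold change was 0.004 at 1 day, against -0.002 over all genes, and -0.138 at 6 months, against -0.008 over all genes. Besides Meg3, the growth inhibitor gene Cdkn1c fell at 1 day (log2 -0.43 ± 0.11, edgeR adjusted p = 0.0182) and Sgce, which encodes a sarcoglycan, fell at 1 day (log2 -0.22 ± 0.041) and 6 months (log2 -0.29 ± 0.067). The proteoglycan gene Dcn fell at 6 months (log2 -0.53 ± 0.13, edgeR adjusted p = 0.0171), while the receptor gene Igf2r rose (log2 0.24 ± 0.045, edgeR adjusted p = 0.00337). The fetal growth factor Igf2 did not pass at either time (log2 -0.061 ± 0.11 and -0.29 ± 0.24), and H19 was too low to test. Rtl1 was not analysed here.

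Of 31 genes of the Notch pathway, in which Dlk1 acts, 27 were tested. At 1 day 1 rose and 3 fell with a median log2 of -0.032, and at 6 months 2 rose and 5 fell with a median of -0.090. Among ligands Jag2 fell at both times (log2 -0.19 ± 0.058 and -0.38 ± 0.060, edgeR adjusted p = 0.0375 and 0.00134), and Jag1 fell at 6 months (log2 -0.23 ± 0.065, edgeR adjusted p = 0.0314). The endothelial ligand Dll4 did not pass (log2 0.040 ± 0.091 and -0.24 ± 0.15). The receptor Notch1 fell at 6 months (log2 -0.18 ± 0.048, edgeR adjusted p = 0.0236) and Notch4 did not pass at either time (log2 -0.036 ± 0.062 and -0.19 ± 0.065). Notch2 was listed at a mean of at most 0.0259 CPM in any lung group and was not tested. Of the regulators, Dtx1 fell at both times (log2 -0.49 ± 0.094 and -0.63 ± 0.18) and the glycosyltransferase Mfng fell at 1 day (log2 -0.20 ± 0.057). The co-activator Maml2 fell at 6 months (log2 -0.15 ± 0.048). Rbpj, the DNA-binding factor, rose at 1 day (log2 0.15 ± 0.041), and Adam17 (log2 0.30 ± 0.060), a protease that cuts the receptor, rose at 6 months. The target genes Hes1 (log2 0.024 ± 0.13 and -0.080 ± 0.091) and Hey1 (log2 -0.11 ± 0.096 and -0.20 ± 0.090) did not pass.

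Markers of several cell types also differed between silica and air lungs. All 10 endothelial markers were tested, 6 fell at 1 day and 10 fell at 6 months, and their sum was 4120 to 4520 CPM in silica and 4550 to 4980 CPM in air lungs at 1 day, and 3640 to 4280 CPM in silica and 4590 to 5070 CPM in air lungs at 6 months. No endothelial marker was at 0. Of all genes tested, 5.72% fell and 8.39% rose at 1 day, and 6.38% fell and 9.84% rose at 6 months. Alveolar type 1 markers summed to 7300 to 7600 CPM in silica and 8000 to 8700 CPM in air lungs at 1 day, and to 7060 to 8010 CPM in silica and 8080 to 8960 CPM in air lungs at 6 months. Alveolar type 2 markers summed to 22800 to 29000 CPM in silica and 22400 to 27500 CPM in air lungs at 1 day, with 2 of 8 higher and 1 lower. At 6 months they summed to 30000 to 36700 CPM in silica and 21100 to 26600 CPM in air lungs without overlap, and 7 of 8 were higher. Macrophage markers summed to 479 to 663 CPM in silica and 381 to 592 CPM in air lungs at 1 day, and to 640 to 811 CPM in silica and 434 to 547 CPM in air lungs at 6 months, with 4 of 6 tested markers higher at each time. After subtracting group means, the endothelial sum had an r of 0.33 with Dlk1, 0.40 with Meg3, 0.30 with Ddc, -0.14 with Tesc, -0.53 with Arsi and 0.071 with Moap1. The alveolar type 2 sum had an r of -0.29 with Dlk1, -0.30 with Meg3, -0.11 with Ddc, 0.26 with Tesc, 0.53 with Arsi and -0.26 with Moap1. Dlk1 had an r of 0.49 with the alveolar type 1 sum. Arsi thus lay opposite to Dlk1 against both of the first sums. The sum of 11 adipose markers was 18.4 to 25.3 CPM in silica and 28.5 to 36.7 CPM in air lungs at 1 day, but 37.8 to 68.7 CPM in silica and 27.3 to 36.1 CPM in air lungs at 6 months, with Ucp1 at 0 in all lung libraries. Striated muscle markers ran from 36.7 to 171 CPM in silica and 16.9 to 226 CPM in air lungs at 1 day, with an r of 0.82 with Dlk1 at 1 day and -0.12 at 6 months. Mesothelial markers summed to 285 to 409 CPM in silica and 386 to 472 CPM in air lungs at 1 day. Airway epithelial markers summed to 5370 to 6720 CPM in silica and 5700 to 9280 CPM in air lungs at 1 day. Cartilage markers went the other way at 1 day, with 16.3 to 20.2 CPM in silica and 11.6 to 15 CPM in air lungs. The mesothelial, airway and cartilage sums overlapped between treatments at 6 months. The part of any of these cell types in the values of the 5 genes and Meg3 was not tested.

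Around Ddc, 15 of 23 genes of amine synthesis and handling were tested, of which 1 rose and 2 fell at 1 day and 2 rose and 2 fell at 6 months. Gch1, which makes the cofactor of the hydroxylases upstream of Ddc, rose at both times (log2 0.55 ± 0.096 and 0.87 ± 0.15, edgeR adjusted p = 0.00151 and 0.00245), opposite in direction to Ddc. Pcbd1, which recycles that cofactor, rose at 6 months (log2 0.37 ± 0.12, edgeR adjusted p = 0.0499). The serotonin transporter Slc6a4 fell at 6 months (log2 -0.33 ± 0.10, edgeR adjusted p = 0.0386), and the aldehyde dehydrogenase Aldh1a1 fell at both times (log2 -0.23 ± 0.043 and -0.25 ± 0.054). Aldh2 fell at 1 day (log2 -0.15 ± 0.043). The amine oxidases Maoa (log2 -0.019 ± 0.054 and -0.12 ± 0.060) and Maob (log2 -0.18 ± 0.076 and -0.032 ± 0.077) did not pass, and the hydroxylases Th and Tph1 were too low to test. Of 16 neuroendocrine markers 15 were found and 5 tested, 0 rose and 0 fell at 1 day by edgeR, and 1, the prohormone convertase Pcsk1, rose at 6 months (log2 0.41 ± 0.11). Their sum was 61.1 to 70.0 CPM in silica and 62.2 to 78.5 CPM in air lungs at 1 day, and 73.8 to 81.9 CPM in silica and 69.8 to 75.2 CPM in air lungs at 6 months, with Grp at 0. The r of this sum with Ddc was -0.25, with -0.053 within 1 day and -0.677 within 6 months. The peptide gene Calca did not pass at either time (log2 0.26 ± 0.29 and -0.48 ± 0.26).

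Around Tesc, 16 of 19 genes of calcineurin B homologs and sodium-proton exchange were tested, of which 2 rose and 2 fell at 1 day and 2 rose and 1 fell at 6 months. Chp2, a close relative of Tesc, fell at both times (log2 -0.69 ± 0.12 and -0.55 ± 0.16, edgeR adjusted p = 0.00175 and 0.0332). The ubiquitous relative Chp1 (log2 0.037 ± 0.036 and 0.065 ± 0.042) did not pass. The exchanger Slc9a7 rose at both times (log2 0.60 ± 0.15 and 0.48 ± 0.11) and Slc9a5 at 6 months (log2 0.53 ± 0.089). At 1 day the membrane linker Ezr fell (log2 -0.26 ± 0.047) and its partner Slc9a3r1 rose (log2 0.18 ± 0.050).

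Around Arsi, 15 sulfatases and their activators were found and tested, of which 1 rose and 0 fell at 1 day and 3 rose and 0 fell at 6 months. The sulfatase genes Arsb (log2 0.32 ± 0.047) and the extracellular Sulf2 (log2 0.27 ± 0.043) rose at 6 months, opposite in direction to Arsi. At 1 day Arsb (log2 0.027 ± 0.062) and Sulf2 (log2 0.038 ± 0.049) did not pass. Arsj, a close relative of Arsi, did not pass (log2 -0.26 ± 0.22 and -0.12 ± 0.17), nor did Sulf1 (log2 -0.082 ± 0.082 and 0.014 ± 0.12).

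Around Moap1, 26 genes of BAX-linked cell death and the PNMA family were tested at 1 day, of which 3 rose and 1 fell, and 27 at 6 months, of which 5 rose and 0 fell. Bid, which activates BAX, rose at both times (log2 0.43 ± 0.089 and 0.45 ± 0.093, edgeR adjusted p = 0.00469 and 0.00579), as did Bak1 (log2 0.12 ± 0.034 and 0.23 ± 0.052) and cytochrome c, Cycs (log2 0.17 ± 0.050 and 0.20 ± 0.064). Bax (log2 0.22 ± 0.052) and Mtch2 (log2 0.20 ± 0.044), which encodes a mitochondrial protein, rose at 6 months. The pro-death gene Bcl2l11 fell at 1 day (log2 -0.24 ± 0.074). Rassf1, which binds the Moap1 protein, did not pass (log2 -0.092 ± 0.073 and -0.11 ± 0.042), and Pnma1 did not at 6 months (log2 -0.052 ± 0.28).

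**Figure D5:**
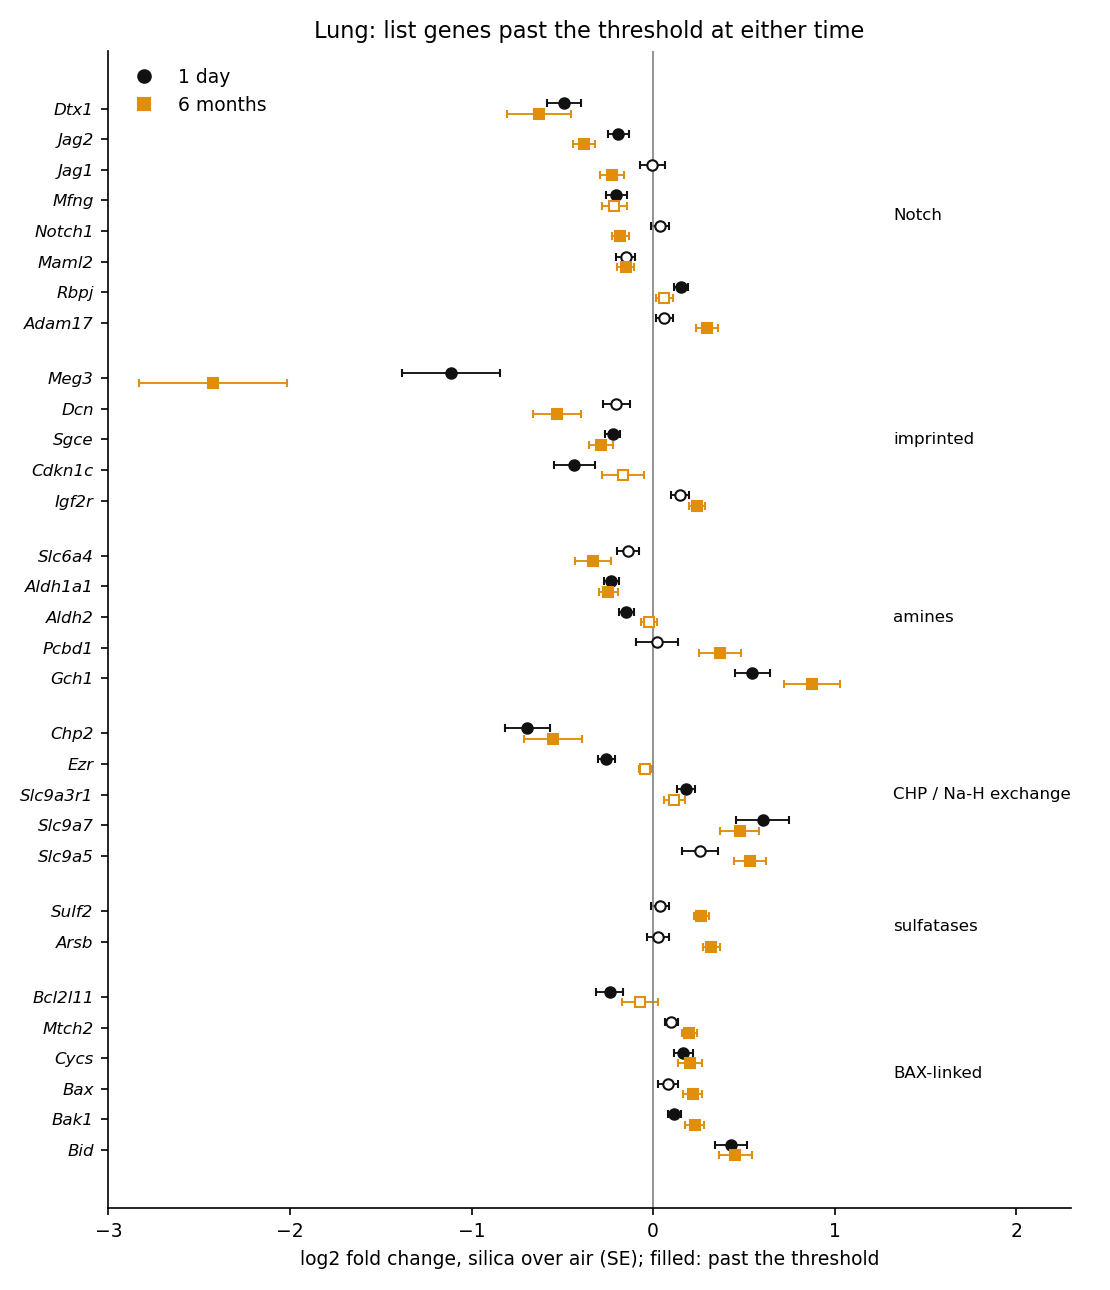
Log2 fold change of silica over air lung with SE (horizontal axis) for the genes of the 6 lists that passed edgeR's test at either time and are reported here, circles for 1 day and squares for 6 months, filled where the test was passed. Meg3 at -1.11 and -2.42 lay farthest from 0, and no other gene plotted passed below -0.69 or above 0.87.

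Over all 6 lists, 115 genes were tested at 1 day with 8 higher and 11 lower, and 116 at 6 months with 15 higher and 11 lower. Over all genes tested 8.39% were higher and 5.72% lower at 1 day, and 9.84% and 6.38% at 6 months. These are the shares to set beside the counts of each list. At 1 day 4 were higher without silica rat 45 and 5 without silica rat 44 or 48 or air rat 37 or 42, and 7 were lower without silica rat 44 or 48. At 6 months 6 were lower without silica rat 58 or air rat 49, and 7 without air rat 51. The time difference passed for 0 of 118 by edgeR and by limma-voom, with 14 toward higher and 4 toward lower at an unadjusted p under 0.05. Over all 15786 genes 1252 were toward higher and 886 toward lower at that unadjusted p. In blood 0 of 88 passed edgeR's test at 1 day (4 higher and 7 lower at an unadjusted p under 0.05, and 1 each way by DESeq2), and 0 of 86 at 6 months (2 higher and 4 lower at an unadjusted p under 0.05). Over all genes in blood, 851 of 12253 were higher and 724 lower at that unadjusted p at 1 day. At 6 months 579 of 11629 were higher and 432 lower.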

How the data were processed

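RNA was sequenced from 23 lung and 24 blood libraries. Per the submitters' processing notes the tools were bcl2fastq 2.19, cutadapt 3.4, Trim Galore 0.6.7, STAR 2.6.1d and Salmon 1.10.1 with build Rnor_6.0, with no role given. Each tissue and time has its own deposited table with the authors' estimated counts per gene, not normalized and often not whole. Here they were rounded before testing. Such estimates split reads between overlapping gene models, so such genes are uncertain.

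Silica was compared with air within each table in R 4.3.3 with the quasi-likelihood test of edgeR 4.0.16 (TMM normalization, minimum count 10, Benjamini-Hochberg adjustment, threshold 0.05), and the time difference as an interaction over the 4 lung groups. Each SE was taken as the absolute log2 value divided by the square root of its F statistic. CPM used TMM factors, and co-variation used log2 CPM with a prior count of 1 and genes with a mean of at least 1 CPM. The p-values set a difference between groups against the spread between rats, and they do not cover chamber or batch. All 115 pairs of libraries within a group differed beyond sampling noise, with a chi-square of 3.76 to 35.4 per degree of freedom. Floors cover counting error only. Meg3 was found through its reference synonym.

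The 5 genes, the lists and the tests were chosen with earlier results of these data known. From each list up to 4 rises and 4 falls with the smallest p were named, beside a fixed set of genes. Among genes with a symbol, up to 5 most like Dlk1 and 3 most like each other gene were named. Alternatives were DESeq2 1.42.0, limma-voom 3.58.1, other factors and filters, 1 surrogate variable from sva 3.50.0, all 4 groups in 1 model, left-out globin and mitochondrial RNA, each library left out and the summed Moap1 pair. Some genes under this rule were left out of the text and figures. The fits were tested on simulated data. Promoter windows came from RefSeq GRCr8, and no count was placed by coordinate. 0 columns were left unmatched.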

Additional observations from a re-analysis of the deposited data

Results flagged for a closer look

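Values in 36 groups of gene and libraries were looked at for 1 library far from the others, and 4 were flagged. A chance rate of about 1 in 20 groups would need independent groups without ties at 0, which these were not. The number of flags is therefore not set against chance. Silica rat 59 in lung at 6 months stood apart in both genes of the region, at 11.7 CPM of Dlk1 with the next silica lung at 5.52 CPM, and at 4.48 CPM of Meg3 with the next at 1.477 CPM. Air rat 42 in lung at 1 day, the deepest library of all, stood apart at 7.55 CPM of Meg3 with the next air lung at 4.201 CPM. Air rat 41 in blood at 1 day was the only one of its group with Moap1 counts, at 0.824 CPM, with the other 5 at 0.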

How the results depend on the processing

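No paired analysis was possible because the silica and air groups share no animal numbers. The lung fold changes of the 5 genes chose them, so their sign across alternatives is no sign of stability. Meg3 kept its calls at both times (edgeR, DESeq2 or limma adjusted p up to 0.0389), except that it was too low to test at 1 day with a minimum count of 50. The sum of Moap1 with the overlapping model gave -0.011 ± 0.041 at 1 day, -0.028 ± 0.052 at 6 months, both within their SE of 0, and a time difference of -0.012 in place of 0.25. Summing the pair was chosen after seeing the data. The Dlk1 time difference ranged from -0.679 to 0.009 with 1 library left out, the upper value without air rat 53. The Moap1 call in blood at 1 day was lost with limma-voom (log2 4.80, adjusted p = 0.143) and with all 4 blood groups in 1 model (log2 4.47, adjusted p = 0.0722), turned to -0.02 in the sum, and ranged from 4.005 to 8.46 with 1 library left out. Genes called for silica against air, blood 1 day, numbered 168, against 361 with DESeq2, 271 with 1 surrogate variable and 86 to 211 with 1 library left out. For silica against air, blood 6 months, they numbered 1, against 3 with DESeq2, 0 with 1 surrogate variable and 0 to 1 with 1 library left out. The r of Dlk1 and Meg3 was 0.835, against 0.708 within 1 day and 0.709 as Spearman's rho. Weak pairs changed sign: Dlk1 and Ddc (-0.019 within 6 months, -0.01 to 0.299 with 1 library left out), Ddc and Arsi (0.03 in air lungs), Ddc and Moap1 (-0.036 to 0.303 with 1 library left out), Tesc and Moap1 (0.145 within 6 months) and Tesc and Arsi (0.148 within 1 day, 0.01 in air lungs, -0.093 to 0.025 with 1 library left out). The cause of these shifts was not tested. Depth limits Dlk1 and Ddc in blood, at 3 counts or fewer per library.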
